A study of Mus musculus with 32 samples.

Results

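The apolipoproteins described here are 10 genes, Apoa1, Apoa2, Apoa4, Apoa5, Apob, Apoc1, Apoc2, Apoc3, Apoe and Apom, taken by gene symbol from the 41585 gene entries of the 2 raw count tables of a mouse liver RNA-seq study. Wildtype (WT) and Cyp2b9/10/13-null (Cyp2b-null) C57BL/6 mice, female and male, were fed from 10 weeks of age for 8 weeks, either normal chow (ND) with a fat content of 6.2% or CDAHFD, a high-fat diet that lacks choline, takes its protein from amino acids and holds 62% fat and little methionine (0.1%). Choline-deficient feeding of this kind is used to bring about steatohepatitis, and the comparisons ask how diet and loss of the Cyp2b genes alter liver expression in each gender. Each of the 8 groups had 4 libraries, and the females and the males stood in separate tables of 16 libraries. The labels give C57BL/6 for all mice. The methods name C57Bl/6J (B6) as the background in which the Cyp2b-null line was made by CRISPR/Cas9, whereas the WT mice were B6 mice bought from a supplier, so that line and genotype cannot be told apart. Nothing in the labels ties a library to 1 animal, and the p-values therefore measure the spread between libraries.

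Apolipoproteins coat the lipid particles that carry triglyceride and cholesterol in blood, and the liver is their main source. Apolipoprotein B is the structural protein of very low density lipoprotein (VLDL), the particle in which hepatocytes export triglyceride, and its secretion is known to depend on phosphatidylcholine, which is made from choline. Apolipoproteins A-I and A-II form high density lipoprotein (HDL), while the A-V, C-I, C-II, C-III and E proteins move between particles and set how fast lipase and receptors clear them.

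All 10 genes were found in the mouse annotation of build GRCm38.p6. Apoa1 (chr9:46228630-46230469), Apoc3 (chr9:46233050-46235636), Apoa4 (chr9:46240844-46243458) and Apoa5 (chr9:46268608-46271921) lie within 43.3 kb, with Apoc3 on the minus strand and the others on the plus strand. Apoe (chr7:19696244-19701310), Apoc1 (chr7:19689480-19692659) and Apoc2 (chr7:19671579-19677941) lie within 29.7 kb on the minus strand, and Apoe is 6196348 bp from Cyp2b10, the nearest of the deleted genes. Apoa2 (chr1:171221564-171226379, plus), Apob (chr12:7977629-8016839, plus) and Apom (chr17:35128997-35131801, minus) stand alone. The whole span of Apoc2 is covered by a readthrough gene, Gm44805, and 951 bp of Apoa2 by Tomm40l, and the part of these overlaps in the counts was not tested.

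The chromosome 9 cluster held the main contrast of the diet comparisons, since Apoa4 rose on CDAHFD while its neighbours were called lower or did not pass, and the 250 bases before the starts of 3 of its genes are shown for that reason. The sequences are from RefSeq, build GRCm38.p6, plus strand, at chr9:46228380-46228629 for Apoa1, chr9:46240594-46240843 for Apoa4 and chr9:46268358-46268607 for Apoa5. Capitals mark matches to CAAAGNNCA, the core of sites bound by hepatocyte nuclear factor 4, or to TATAAA, each searched on both strands.
Apoa1: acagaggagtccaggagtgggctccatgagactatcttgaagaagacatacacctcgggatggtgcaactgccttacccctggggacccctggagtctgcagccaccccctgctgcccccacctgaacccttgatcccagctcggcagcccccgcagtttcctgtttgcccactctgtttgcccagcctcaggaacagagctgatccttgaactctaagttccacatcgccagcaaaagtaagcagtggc
Apoa4: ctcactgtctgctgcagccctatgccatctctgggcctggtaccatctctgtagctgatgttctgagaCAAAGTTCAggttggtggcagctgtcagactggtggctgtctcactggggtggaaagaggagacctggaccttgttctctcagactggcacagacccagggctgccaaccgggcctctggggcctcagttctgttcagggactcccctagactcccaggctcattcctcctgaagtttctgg
Apoa5: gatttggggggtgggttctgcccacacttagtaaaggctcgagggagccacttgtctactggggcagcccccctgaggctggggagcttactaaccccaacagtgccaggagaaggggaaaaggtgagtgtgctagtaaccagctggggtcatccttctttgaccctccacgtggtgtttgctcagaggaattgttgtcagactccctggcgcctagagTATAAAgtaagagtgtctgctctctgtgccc
Apoa4 held CAAAGTTCA from 182 to 174 bases before its start, Apoa5 held TATAAA from 31 to 26 bases before its start, and the Apoa1 window held no match to these letters. Among all 32851 promoter windows of the table, 5.49% held the first motif and 12.4% the second, and a match is a description and not a shown site. Of the 10 members, 8 had a promoter entry (all but Apoc1 and Apoc3), and besides Apoa4 the first motif was found in Apob. Besides Apoa5, the second motif was found in an entry of each of Apoa2, Apoe and Apob.

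Library totals ranged from 2906411 to 10166959 counts. In females the deleted genes followed the genotype labels, with 2 to 8 counts of Cyp2b9 in each library of the null line against 683 or more in each WT one, and likewise apart for Cyp2b10 and Cyp2b13. In males, where these genes are low, 1 gene separated the genotypes well on each diet. Cyp2b10 had 33 to 97 counts in ND-fed WT and 1 to 9 in ND-fed Cyp2b-null males, and Cyp2b9 had 118 to 364 in CDAHFD-fed WT and 2 to 7 in CDAHFD-fed Cyp2b-null males. Cyp2b9 on ND (0 to 15 against 4 to 18), Cyp2b10 on CDAHFD (0 to 7 against 0 to 6) and Cyp2b13 on ND (0 against 0 to 2) did not separate the male genotypes, and so checked nothing there, while Cyp2b13 on CDAHFD was 2 to 6 against 0. One library stood apart. In CDAHFD-fed Cyp2b-null female replicate 3, log2 CPM (counts scaled to a common library total with TMM factors) centred on the mean of all female libraries dropped by 0.302 for each doubling of exon length over other genes, whereas this slope lay between -0.110 and 0.106 in the other 31 libraries. The 10 apolipoprotein genes took 7.84% of its counts, against 4.51% to 6.23% in the others. This library is also one of 2 that the heat maps of the study leave out, and the results it bears on most are given with and without it. Hepatocyte identity was plain in all groups, with Alb, encoding albumin, at 300920 or more counts in each library.

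Levels between genes were compared as CPM per kb of exon, with the exons of all annotated transcripts of a gene joined. This length was 0.537 kb for Apoa2 and 2.14 kb for Apoe. The order depends on it, and which transcripts were present in these livers was not tested. Before division by length, Apoe (26985 CPM) was above Apoa2 (10909 CPM) in ND-fed WT females. In ND-fed WT females Apoa2 was the most abundant (20315 ± 2008 CPM per kb, SD, n = 4), followed by Apoe (12621 ± 788), Apoa1 (7539 ± 1012), Apoc1 (6047 ± 845) and Apoc3 (2568 ± 410). Apoa5 (715 ± 51), Apob (410 ± 66), Apoa4 (118 ± 13) and Apom (111 ± 12) followed at lower levels, and Apoc2 came last at 6.54 CPM per kb. The ranges of Apoa1 and Apoc1 overlapped, as did those of Apoa4 and Apom, and the other neighbours in this order did not overlap. In ND-fed WT males Apoe (12091 ± 3258), Apoa2 (11563 ± 4590) and Apoa1 (9859 ± 1106) overlapped at the top of the order. On CDAHFD, Apoa4 moved from the eighth place to the sixth in WT females (859 ± 694 CPM per kb) and to the seventh in WT males (606 ± 183). Its range in these WT females (455 to 1894) overlapped those of its neighbours Apoc3 (1373 to 1602) and Apoa5 (409 to 553). In these WT males its range (369 to 763) overlapped those of Apob (565 to 1022) and Apoa5 (376 to 507). The low place of Apoc2 rests on 9 to 52 counts per library and on a gene that overlaps a readthrough locus, whose own entry was at 0 counts in each library.

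**Figure D1:**
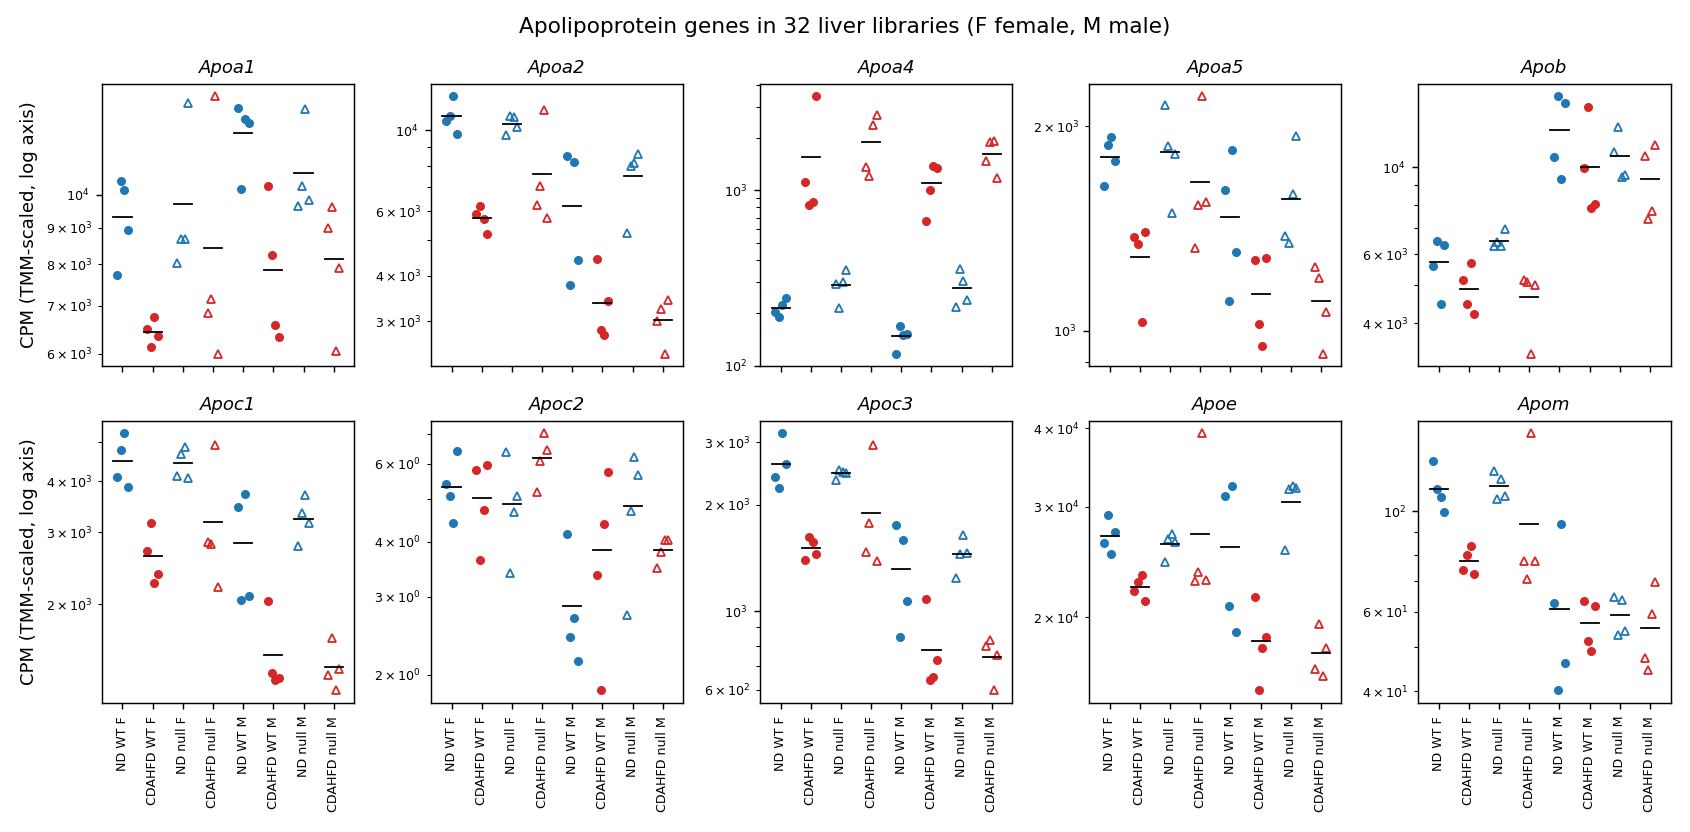
CPM (TMM-scaled, log axis) of the 10 apolipoprotein genes in each of 32 libraries, by group on the x axis, with ND in blue, CDAHFD in red, WT as filled circles, Cyp2b-null as open triangles and the group mean as a line. Apoa4 is the gene whose 4 CDAHFD groups all sit above their ND groups, and the highest red triangle for Apoe in females, at 39263 CPM, is replicate 3 of CDAHFD-fed Cyp2b-null females.

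Apoa4, which encodes a lipid-binding protein of chylomicrons and HDL, was the member that rose on CDAHFD, and it did so in both genotypes and both genders. In females, its level was 202, 189, 222 and 244 CPM in ND-fed WT and 1118, 826, 857 and 3438 CPM in CDAHFD-fed WT. It was 291, 213, 299 and 352 CPM in ND-fed Cyp2b-null females and 1367, 1214, 2348 and 2679 CPM in CDAHFD-fed Cyp2b-null females. The CDAHFD and ND libraries did not overlap, and replicate 4 of CDAHFD-fed WT females stood far above the other 3. In males, Apoa4 was 117, 169, 150 and 152 CPM in ND-fed WT and 669, 1007, 1385 and 1339 CPM in CDAHFD-fed WT. It was 217, 355, 304 and 237 CPM in ND-fed Cyp2b-null males and 1477, 1897, 1917 and 1177 CPM in CDAHFD-fed Cyp2b-null males, again without overlap.

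The change in Apoa4 was 7.27-fold in WT females (log2 2.86 ± 0.37 SE, adjusted p = 8.47e-06 by edgeR's quasi-likelihood test with Benjamini-Hochberg adjustment over all genes, here and below). It was 6.59-fold in Cyp2b-null females (log2 2.72 ± 0.37, adjusted p = 1.34e-05), 7.48-fold in WT males (log2 2.90 ± 0.23, adjusted p = 5.98e-09) and 5.82-fold in Cyp2b-null males (log2 2.54 ± 0.22, adjusted p = 2.00e-08). The call held in each alternative and with each library left out in turn. By group means, with the females and the males in separate tables so that gender and table cannot be told apart, the order ran from ND-fed WT males (147 ± 21.5 CPM) through ND-fed WT females (214 ± 24.0), ND-fed Cyp2b-null males (278 ± 63.2) and ND-fed Cyp2b-null females (289 ± 57.1) to the 4 CDAHFD groups (1100 ± 333 to 1902 ± 722). Neighbours within the CDAHFD groups differed by less than their spread, as did both ND-fed Cyp2b-null groups.

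In diet comparisons 13.9% of all genes tested were called higher and 10.2% lower in WT females, 16.9% and 13.9% in Cyp2b-null females, 18% and 15% in WT males, and 20.3% and 17.1% in Cyp2b-null males. Against these shares, Apoa4 was the 1 of 10 members called higher in each comparison. Members called lower numbered 5 of 10 in WT females (Apoa2, Apoa5, Apoc1, Apoc3 and Apom), 2 of 10 in Cyp2b-null females (Apoa2 and Apob), 5 of 10 in WT males (Apoa1, Apoa2, Apoc1, Apoc3 and Apoe) and 5 of 10 in Cyp2b-null males (Apoa2, Apoa5, Apoc1, Apoc3 and Apoe). The median log2 change of the members was -0.51, -0.24, -0.44 and -0.45 in that order, where the median over all genes tested was 0.00, 0.03, -0.02 and -0.01. In bulk liver, fewer hepatocytes and less RNA per hepatocyte cannot be told apart.

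**Figure D2:**
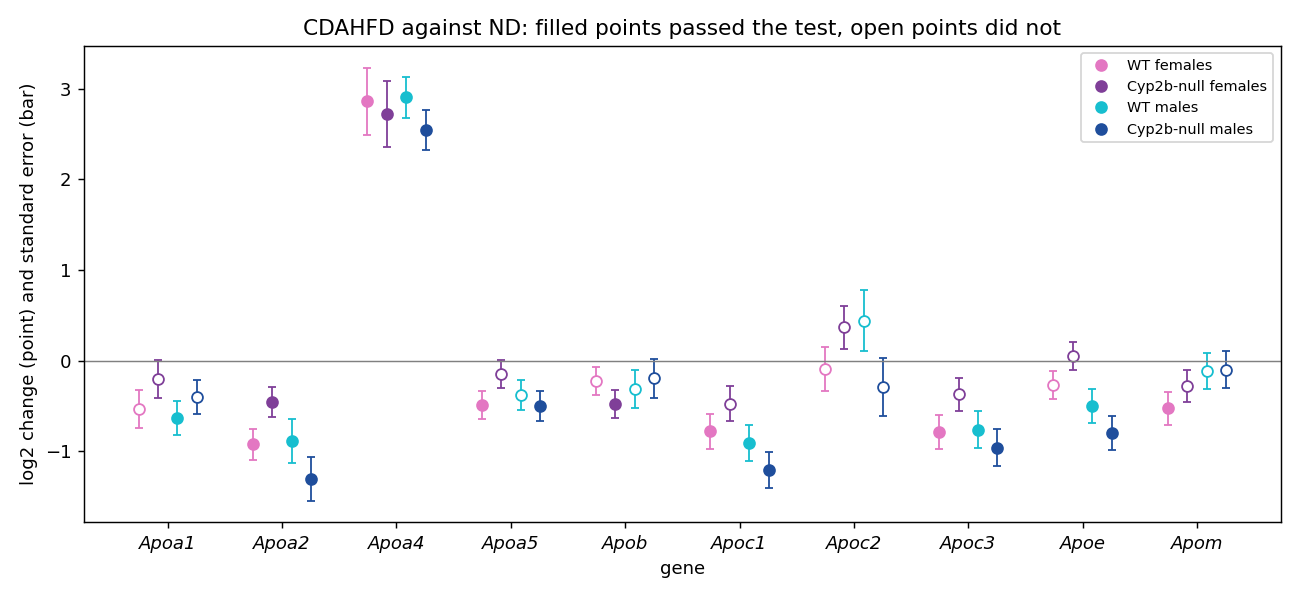
Log2 change on CDAHFD against ND for each apolipoprotein gene (point) with its standard error (bar), for WT and Cyp2b-null females and males, filled where the adjusted p was under 0.05. Apoa4 lies between 2.54 and 2.90 in all comparisons, while Apoa2 is filled below 0 in each of them.

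Within a library, the share of Apoa4 in the counts of the 4 chromosome 9 genes does not depend on how libraries are scaled. It was 1.28% to 1.80% in ND-fed WT females and 8.32%, 8.39%, 10.8% and 27.2% in CDAHFD-fed WT females. In Cyp2b-null females it was 1.61% to 2.31% on ND and 10.4% to 23.1% on CDAHFD. In males it was 0.702% to 1.37% on ND and 5.02% to 14.5% on CDAHFD in WT, and 1.74% to 2.64% on ND and 10.8% to 20.2% on CDAHFD in Cyp2b-null mice. The lowest share on CDAHFD thus lay above the highest on ND in every genotype and gender. Replicate 3 of CDAHFD-fed Cyp2b-null females, the library that stood apart, was inside the range of its group at 11.1%.

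**Figure D3:**
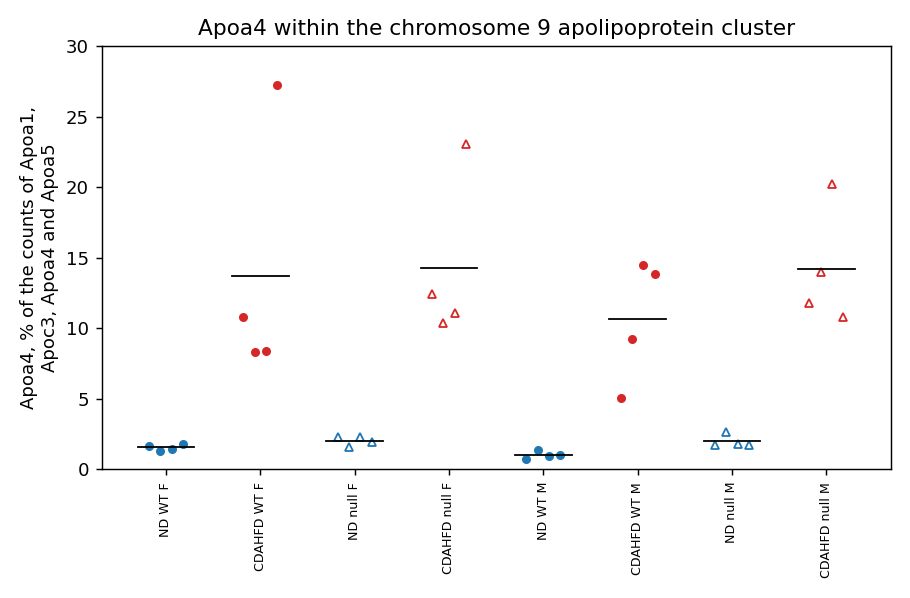
Percent of the counts on Apoa1, Apoc3, Apoa4 and Apoa5 that fell on Apoa4, for each of 32 libraries by group, with the group mean as a line. ND libraries lie between 0.702% and 2.64% and CDAHFD libraries between 5.02% and 27.2%.

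Apoa4 is also made in gut, so markers of intestinal epithelium were read beside it. Their summed level moved with it in females, at 35.5 to 59.2 CPM on ND and 88.5 to 162 CPM on CDAHFD in WT, and at 44.0 to 59.2 CPM and 135 to 238 CPM in Cyp2b-null. In males the sums were 36.1 to 58.4 CPM and 58.9 to 66.9 CPM in WT, and 46.3 to 94.4 CPM and 54.1 to 77.5 CPM in Cyp2b-null. Nearly all of these counts came from Fabp2, a fatty acid binding protein gene, whereas Vil1 had 0 to 19 counts, Cdx1 none and Cdx2 at most 2 in a library. Of the 5 pancreas markers, 4 were at 0 counts in each group of females and in both WT groups of males. In Cyp2b-null males 2 were at 0 on ND and 1 on CDAHFD. There Pnlip had at most 5 counts in a library, Ctrb1 at most 3 and Cpa1 at most 2. The part of other cells in the rise of Apoa4 was not tested.

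Apoa2, the second structural protein of HDL, was called lower in all 4 diet comparisons. In WT females it was 10561, 10951, 12351 and 9774 CPM on ND and 5890, 6219, 5723 and 5200 CPM on CDAHFD. In WT males it was 8479, 3764, 8179 and 4416 CPM on ND and 4434, 2837, 2758 and 3412 CPM on CDAHFD. The female groups did not overlap, and the male groups did because ND-fed WT males split into a high and a low pair. Apoa2 fell by 0.92 ± 0.17 on the log2 scale in WT females (adjusted p = 0.00039) and by 0.89 ± 0.24 in WT males (adjusted p = 0.0067). In Cyp2b-null males it was 5228, 7961, 8136 and 8599 CPM on ND and 3014, 3236, 2451 and 3431 CPM on CDAHFD, the largest fall of any member (1.30 ± 0.24, adjusted p = 0.000206).

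In Cyp2b-null females Apoa2 was 9685, 10911, 10853 and 10197 CPM on ND and 6222, 7053, 11364 and 5737 CPM on CDAHFD, where the value above the ND range is replicate 3. The log2 change was -0.46 ± 0.17 (adjusted p = 0.0463) with that library and -0.72 ± 0.12 (adjusted p = 0.000204) without it. The call was lost without any 1 of CDAHFD-fed WT replicates 1, 2 or 3, any ND-fed Cyp2b-null replicate, or CDAHFD-fed Cyp2b-null replicates 1, 2 or 4, with adjusted p of up to 0.138.

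The split among ND-fed WT males ran through several members. Replicates 1 and 3 had length slopes of -0.067 and -0.110 and replicates 2 and 4 of 0.095 and 0.079, and Apoa2 counts per Apob count were 0.797 and 0.876 in the first pair and 0.248 and 0.302 in the second. Apob has the longest exon length of the members (13.9 kb) and Apoa2 the shortest (0.537 kb). The part of the slope in these members' values was not tested beyond the fit that carries it as a covariate.

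Apoa1, the main HDL protein, was 7721, 10445, 10171 and 8935 CPM in ND-fed and 6506, 6137, 6761 and 6360 CPM in CDAHFD-fed WT females, without overlap. Its log2 change there was -0.53 ± 0.21 and did not pass (adjusted p = 0.0759), and it passed at adjusted p = 0.0102 when CDAHFD-fed Cyp2b-null replicate 3 was left out of the fit. In WT males Apoa1 fell by 0.63 ± 0.18 (adjusted p = 0.0112), from 10175 to 13225 CPM on ND to 6339 to 10305 CPM on CDAHFD. In Cyp2b-null males the change was -0.40 ± 0.18 (adjusted p = 0.094). Apom, which encodes the HDL protein that carries sphingosine 1-phosphate, was 129, 112, 107 and 99.9 CPM in ND-fed and 74.3, 80.3, 84.0 and 72.8 CPM in CDAHFD-fed WT females and fell by 0.53 ± 0.18 (adjusted p = 0.0386). That call was lost without any 1 of ND-fed WT replicates 1, 2 or 3 or CDAHFD-fed WT replicates 1, 2 or 4, with adjusted p of up to 0.113. In males Apom changed by -0.11 ± 0.20 in WT and -0.10 ± 0.20 in Cyp2b-null, neither of which passed.

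Among the genes whose products act on particle clearance, Apoc1 and Apoc3 were called lower in all comparisons but that in Cyp2b-null females. Apoc1, whose product slows uptake and transfer of lipid from particles, was 4102, 4784, 5240 and 3869 CPM in ND-fed and 2697, 3169, 2259 and 2374 CPM in CDAHFD-fed WT females. In males it was 3465, 2045, 3719 and 2098 CPM in ND-fed and 2041, 1357, 1308 and 1319 CPM in CDAHFD-fed WT, and 2772, 3342, 3696 and 3167 CPM in ND-fed and 1343, 1657, 1231 and 1393 CPM in CDAHFD-fed Cyp2b-null mice. None of these 3 pairs of groups overlapped. Apoc1 fell by 0.78 ± 0.19 in WT females (adjusted p = 0.00475), 0.91 ± 0.20 in WT males (adjusted p = 0.00114) and 1.21 ± 0.20 in Cyp2b-null males (adjusted p = 5.66e-05) on the log2 scale.

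Apoc3, an inhibitor of lipoprotein lipase, was 2394, 2228, 3182 and 2611 CPM in ND-fed and 1392, 1625, 1568 and 1447 CPM in CDAHFD-fed WT females, a fall of 0.79 ± 0.19 (adjusted p = 0.00325). In Cyp2b-null males it was 1243, 1456, 1641 and 1459 CPM on ND and 797, 829, 597 and 753 CPM on CDAHFD, a fall of 0.96 ± 0.20 (adjusted p = 0.000797), and neither comparison had overlapping libraries. In WT males it fell by 0.76 ± 0.20 (adjusted p = 0.00625), with 848 to 1756 CPM on ND and 641 to 1081 CPM on CDAHFD. Apoa5, whose product promotes lipolysis, was called lower in WT females (-0.49 ± 0.16, adjusted p = 0.0273) and Cyp2b-null males (-0.50 ± 0.17, adjusted p = 0.0236), both without overlap of the libraries. The first call was lost without ND-fed WT replicates 2 or 3 or CDAHFD-fed WT replicate 3 (adjusted p of up to 0.0945), and the second without ND-fed Cyp2b-null replicate 4 or CDAHFD-fed Cyp2b-null replicates 3 or 4 (up to 0.102). In WT males the change of Apoa5 was -0.38 ± 0.17 (adjusted p = 0.0907), and it passed without ND-fed WT replicate 2 (0.0297). Apoc2, the activator of lipoprotein lipase, changed by -0.29 to 0.44 and passed in no diet comparison, except that it was called higher in Cyp2b-null females with libraries scaled by their totals alone (0.62 ± 0.24, adjusted p = 0.0488). Whether reads shared with the overlapping readthrough gene were counted for Apoc2 is not given in the sources used here.

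Apoe, the ligand by which remnant particles are taken up, was called lower in both male comparisons and in neither female comparison. It was 26264, 29150, 25200 and 27326 CPM in ND-fed and 22047, 22767, 23346 and 21255 CPM in CDAHFD-fed WT females, groups that did not overlap. The log2 change there was -0.27 ± 0.16 and did not pass (adjusted p = 0.226), and it passed at adjusted p = 0.0462 when CDAHFD-fed Cyp2b-null replicate 3 was left out of the fit. In Cyp2b-null males it was 25609, 32031, 32409 and 32110 CPM on ND and 16535, 19526, 16125 and 17886 CPM on CDAHFD, a fall of 0.80 ± 0.19 (adjusted p = 0.00174). In WT males it fell by 0.50 ± 0.19 (adjusted p = 0.0442), from 31234, 20804, 32427 and 18933 CPM to 21512, 15280, 17891 and 18594 CPM. The WT male groups overlapped, and the call was lost in 9 of 16 fits that left out 1 library, namely ND-fed WT replicates 1 or 3, CDAHFD-fed WT replicates 2, 3 or 4, ND-fed Cyp2b-null replicates 2, 3 or 4, and CDAHFD-fed Cyp2b-null replicate 4 (adjusted p of up to 0.16).

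In Cyp2b-null females Apoe was 24516, 26694, 27186 and 26359 CPM on ND and 22846, 23588, 39263 and 22956 CPM on CDAHFD. The log2 change was 0.05 ± 0.16 with replicate 3, the library of 39263 CPM, and -0.18 ± 0.11 without it (adjusted p = 0.231). The diet effect on Apoe in Cyp2b-null mice was lower in males than in females by 0.84 ± 0.24 on the log2 scale (adjusted p = 0.0436), and Apoe was the 1 of 10 members whose diet effect was called different between genders in that genotype. Among all genes, 3.4% were called in this comparison. Without replicate 3 the difference was -0.59 ± 0.21 and did not pass (adjusted p = 0.138). It was also lost without CDAHFD-fed WT female replicate 2, any 1 of the 4 ND-fed Cyp2b-null female replicates, ND-fed Cyp2b-null male replicates 2, 3 or 4, or CDAHFD-fed Cyp2b-null male replicates 1, 3 or 4.

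Macrophages are also a source of Apoe and Apoc1, and macrophage markers rose with the diet. The 7 markers summed to 181 to 267 CPM on ND and 783 to 1169 CPM on CDAHFD in WT females, and to 80.5 to 134 CPM and 740 to 1661 CPM in WT males. In Cyp2b-null mice they summed to 189 to 271 CPM and 896 to 1391 CPM in females and to 76.9 to 91.1 CPM and 1048 to 2109 CPM in males. All 6 tested were called higher in each diet comparison, and the remaining marker, Trem2, was listed at 0 in each library. The 5 hepatocyte markers, none of them an apolipoprotein, summed to 130103 to 197144 CPM on ND and 83928 to 105418 CPM on CDAHFD in WT females, and to 108356 to 121349 CPM and 56436 to 98573 CPM in WT males. In Cyp2b-null mice the sums were 137920 to 171623 CPM and 76526 to 116999 CPM in females and 99511 to 112115 CPM and 53404 to 80951 CPM in males, and 4 of the 5 were called lower in each diet comparison. Their part in the fall of the apolipoprotein genes was not tested.

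Apob, encoding the core protein of VLDL, has the longest span of the members and was called in 1 of 4 diet comparisons. In females it was 5584, 6498, 4471 and 6319 CPM in ND-fed and 5154, 4476, 5699 and 4220 CPM in CDAHFD-fed WT, with a log2 change of -0.23 ± 0.16 (adjusted p = 0.323). In Cyp2b-null females it was 6300, 6448, 6274 and 6937 CPM on ND and 5165, 5103, 3343 and 5010 CPM on CDAHFD, and fell by 0.48 ± 0.16 (adjusted p = 0.0238). The lowest of these is replicate 3, and without it the change was -0.35 ± 0.14 (adjusted p = 0.0626), with the libraries still apart. The call was lost also without ND-fed Cyp2b-null replicate 4. In males the changes of Apob were -0.31 ± 0.21 in WT and -0.20 ± 0.21 in Cyp2b-null, which did not pass.

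Leaving out replicate 3 altered the count of members called in Cyp2b-null females more than any other library did. With it, 2 members were called lower. Without it there were 5, Apoa1 (-0.54 ± 0.16, adjusted p = 0.0168), Apoa2, Apoc1 (-0.76 ± 0.15, adjusted p = 0.000729), Apoc3 (-0.67 ± 0.13, adjusted p = 0.000792) and Apom (-0.59 ± 0.11, adjusted p = 0.000547), while Apob was not among them. Apoa4 stayed higher by 2.60 ± 0.39 (adjusted p = 5.74e-05). The share of all genes called in the fit without replicate 3 is not given here. The rise in calls therefore cannot be read as particular to the members.

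**Figure D4:**
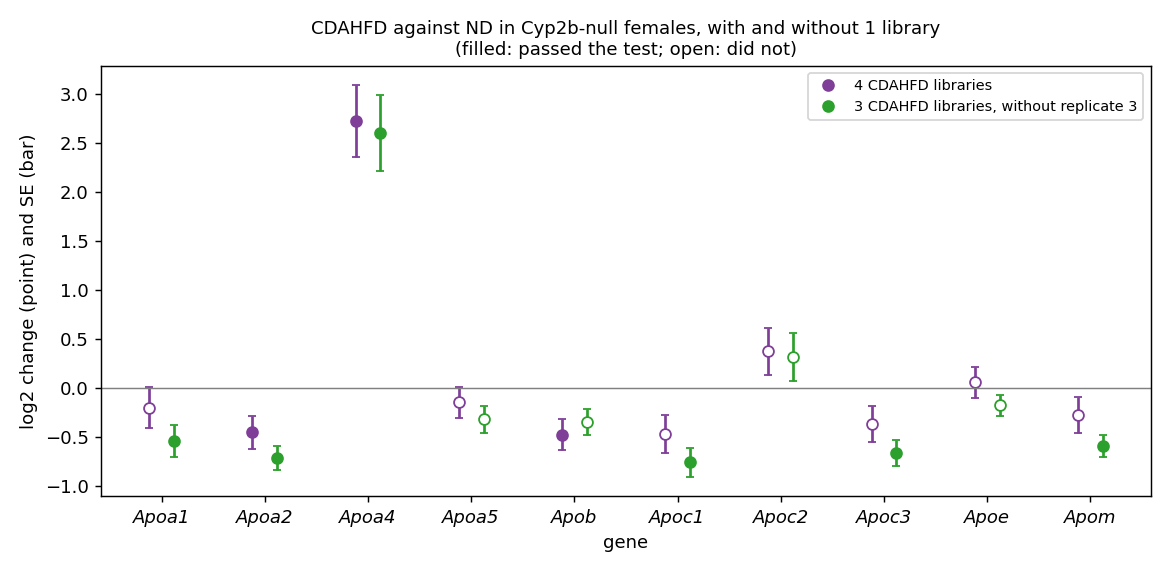
Log2 change on CDAHFD against ND in Cyp2b-null females for each member (point, with standard error bar) from all 4 CDAHFD libraries (purple) and from 3, without replicate 3 (green), filled where adjusted p was under 0.05. Apoa1, Apoc1, Apoc3 and Apom become filled without that library, Apob becomes open and Apoa4 stays near 2.6 to 2.7.

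Scaling bears on the direction of the smaller changes. With libraries scaled by their totals alone, the median of all genes in the diet comparisons moved up to between 0.28 and 0.37 on the log2 scale. Under that scaling Apoa4 remained higher in all 4 comparisons (2.93 to 3.33), and Apoa2 (-0.95 to -0.22), Apoc1 (-0.84 to -0.25) and Apoc3 (-0.60 to -0.14) remained below 0. Calls were fewer, however, with members called lower going from 5 to 3 in WT females (Apoa5 and Apom lost), from 2 to 0 in Cyp2b-null females (Apoa2 and Apob lost), from 5 to 1 in WT males (Apoa1, Apoa2, Apoc3 and Apoe lost) and from 5 to 4 in Cyp2b-null males (Apoa5 lost). The share of all genes called lower under that scaling is not given here, so these losses cannot be read as particular to the members. Also with totals alone, some estimates that were below 0 with TMM factors came out above 0. These were Apob in WT females and in both male comparisons, Apoa1 and Apoa5 in Cyp2b-null females, and Apoe in WT females. The others were Apoa5 in WT males, Apom in males, and Apoc2 in WT females and Cyp2b-null males. None of these had passed the test. With RLE scaling the 1 loss of a call was Apoa2 in Cyp2b-null females.

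For the genotype, no member was called in any comparison of Cyp2b-null with WT mice. Among all genes, the genotype comparison called 0.0756% on ND and 0.0227% on CDAHFD in females, and 0.0371% on ND and 0.0297% on CDAHFD in males. At an unadjusted p under 0.05 there were 0 members on ND and 2 on CDAHFD in females (Apoa2 and Apoa5), and 2 on ND (Apoa4 and Apoc2) and 1 on CDAHFD (Apoa4) in males. Over all genes, that cutoff was met by 760 on ND and 771 on CDAHFD of 13226 tested in females. In males it was met by 1112 on ND and 487 on CDAHFD of 13460. Beside these numbers, the counts of members say little about them. DESeq2 called 0 members in these comparisons except on ND in males, where it called Apoa4.

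Apoa4 was the member nearest to a genotype difference. In ND-fed males its 4 Cyp2b-null libraries (217, 355, 304 and 237 CPM) lay above its 4 WT libraries (117, 169, 150 and 152 CPM), a log2 difference of 0.92 ± 0.21 that did not pass (adjusted p = 0.129). It passed with DESeq2 (0.92, adjusted p = 0.0166), without the filter on low counts (adjusted p = 2.27e-06) and with the 2-step rule of the study's methods (adjusted p = 0.00376). On CDAHFD in males the difference was 0.56 ± 0.21 (adjusted p above 0.99), and in females it was 0.43 ± 0.35 on ND and 0.29 ± 0.34 on CDAHFD (adjusted p = 0.951 and 0.876). Estimates for the other members ran from -0.22 to 0.71 on the log2 scale in males and from -0.17 to 0.40 in females.

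In CDAHFD-fed females, 9 of 10 estimates were above 0, with a median of 0.29. Without replicate 3 of the Cyp2b-null group, Apoa2 went from 0.40 ± 0.17 to 0.14 ± 0.12 and Apoe from 0.28 ± 0.16 to 0.05 ± 0.11, and all 10 estimates then lay between -0.04 and 0.24. No member was called either way.

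**Figure D5:**
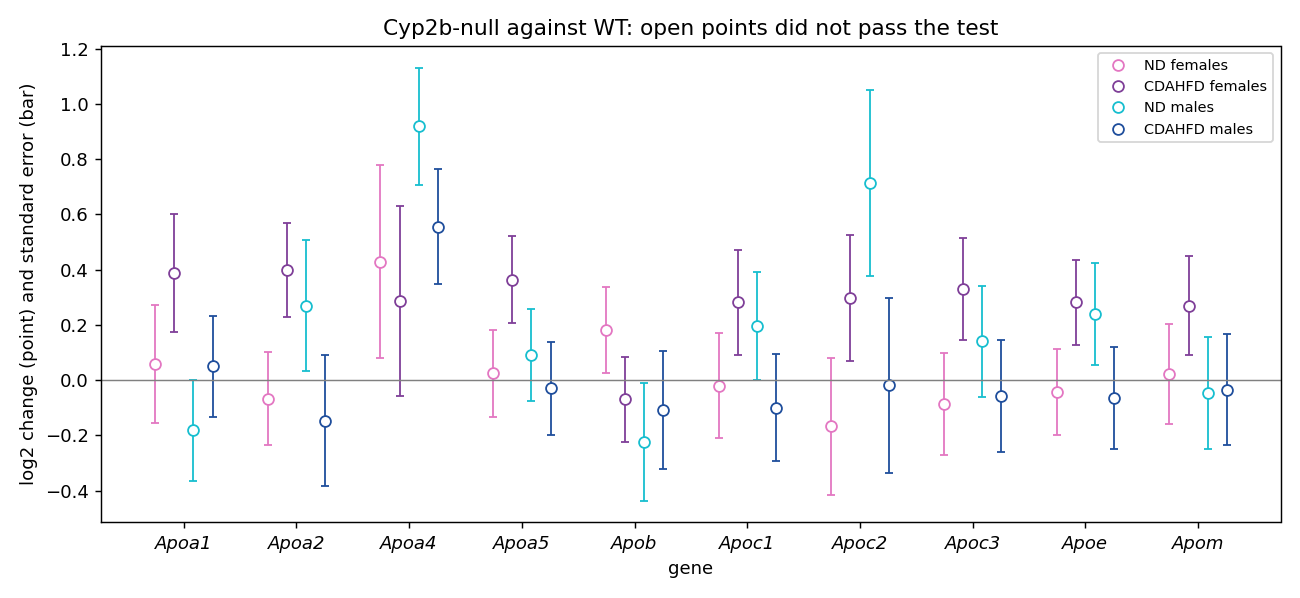
Log2 difference of Cyp2b-null from WT for each member (point) with its standard error (bar), on ND and CDAHFD in females and males. No point passed the test, and the highest is Apoa4 in ND-fed males at 0.92.

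The interaction of diet and genotype asks whether the diet effect differed by genotype. For it, no member was called in females or males by edgeR or DESeq2. Among all genes, 0% were called for females and 0.00743% for males, so that the count says little about the members. No member had an unadjusted p under 0.05, where 830 of 13226 genes in females and 817 of 13460 in males did. The interaction of Apoa4 was -0.14 ± 0.49 in females and -0.36 ± 0.30 in males, and the widest estimate was that of Apoc2 in males (-0.73 ± 0.46). For Apoa2 the interaction was -0.42 ± 0.34 in males, and in females it was 0.47 ± 0.24 with replicate 3 of the CDAHFD-fed Cyp2b-null group and 0.21 ± 0.16 without it.

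Between genders, the diet effect in WT mice was called different for 0 of 10 members (0 by DESeq2 and 0 at an unadjusted p under 0.05), where 0.97% of all genes were called. An unadjusted p under 0.05 was met by 1439 of 14020 genes. Male minus female differences ran from -0.20 ± 0.24 for Apoe to 0.56 ± 0.40 for Apoc2, and that of Apoa4 was 0.07 ± 0.44. In Cyp2b-null mice Apoa2 (-0.83 ± 0.31, adjusted p = 0.125) and Apoc1 (-0.71 ± 0.29, adjusted p = 0.162) stood next to Apoe without passing, and without replicate 3 of the CDAHFD-fed females they were -0.56 ± 0.29 and -0.42 ± 0.26. The genotype effect on CDAHFD differed by gender for 0 members (0 also by DESeq2 and at an unadjusted p under 0.05), and 0.00713% of all genes were called. Here 439 of 14020 genes had an unadjusted p under 0.05. Levels of females and males stand in separate tables, so that a difference such as Apob at 5718 ± 920 CPM in ND-fed WT females and 12440 ± 2887 CPM in ND-fed WT males cannot be told apart from a difference between tables.

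Some members varied together between libraries of the same group. On deviations from the group means over the 16 male libraries, Pearson's r was 0.93 between Apoa2 and Apoc3, 0.90 between Apoa2 and Apoc1 and 0.92 between Apoa2 and Apoe, but 0.41 between Apoa1 and Apoe and 0.11 between Apoa1 and Apom. In the 16 female libraries r was 0.92 between Apoa2 and Apoc3 and 0.94 between Apoa2 and Apoc1, and these were 0.68 and 0.84 over the 15 libraries left without replicate 3 of CDAHFD-fed Cyp2b-null mice. Other female values rested on that library, since r between Apoa2 and Apoe went from 0.86 to 0.18 without it, and r between Apob and Apoe from -0.49 to 0.70. In males Apob and Apoe had r of -0.61. Apoa4 had r of 0.17 with Apoa1, 0.36 with Apoa5 and 0.04 with Apoc3 in females (-0.00, 0.29 and -0.29 without replicate 3), and of -0.46, -0.36 and -0.47 in males. These values share library depth and length slope, and describe the libraries only.

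Over all 32 libraries, centred within gender, the gene most like each member was found among 8296 genes of at least 10 CPM on average. For Apoa4 it was Anxa2 (r = 0.95), which encodes annexin A2 and had diet effects of 3.43 and 4.11 on the log2 scale in WT females and males. For Apoa2 and Apoc1 it was Ttr, encoding transthyretin (r = 0.96 for each), for Apoc3 it was Fah (0.96), for Apoe Aes (0.96) and for Apoa1 Serpina1a (0.86). For Apob it was Arhgef12 (0.89), for Apoa5 Prdx6 (0.88), for Apom Ctsh (0.79) and for Apoc2 Vps25 (0.64). Without replicate 3 of CDAHFD-fed Cyp2b-null females, the nearest gene was another for 3 members, Apoa5 (Eny2), Apom (Fcna) and Apoc2 (Exosc5). Points share library, diet and depth.

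Other genes of lipoprotein metabolism moved with the diet in both directions. Among 13 further apolipoprotein genes, 11 were tested, and 3 were called higher and 2 lower in WT females, 5 and 1 in Cyp2b-null females, 4 and 2 in WT males, and 4 and 5 in Cyp2b-null males. Of all genes tested, 13.9% were called higher and 10.2% lower in WT females and 16.9% and 13.9% in Cyp2b-null females. In WT males these shares were 18% and 15%, and in Cyp2b-null males 20.3% and 17.1%. Saa1 and Saa2, the acute phase apolipoproteins, rose by 3.26 ± 0.38 and 3.18 ± 0.41 on the log2 scale in WT females (adjusted p = 2.56e-06 and 9.00e-06) and by 3.02 ± 0.28 and 3.65 ± 0.32 in WT males (adjusted p = 6.53e-08 and 2.72e-08). Apoh fell by 0.92 ± 0.13 in females and 0.76 ± 0.13 in males, and Apol7a by 0.76 ± 0.20 and 0.65 ± 0.15.

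Of 24 genes for lipoprotein assembly, remodelling and receptors, 23 were tested, and 3 were called higher and 11 lower in WT females, 4 and 10 in Cyp2b-null females, 4 and 9 in WT males, and 4 and 10 in Cyp2b-null males. Lpl, encoding lipoprotein lipase, rose by 3.28 ± 0.20 in WT females and 3.92 ± 0.28 in WT males, and Abcg1, a cholesterol exporter, by 1.56 ± 0.20 and 2.51 ± 0.24. Of 13 genes for transcription factors that act on apolipoprotein genes, 0 were called higher and 3 lower in WT females, 0 and 5 in Cyp2b-null females, 0 and 6 in WT males, and 1 and 7 in Cyp2b-null males. Beside the counts of both lists, 13.9% to 20.3% of all genes tested were called higher and 10.2% to 17.1% lower in the diet comparisons. Hnf4a fell by 0.58 ± 0.16 in WT females and 0.74 ± 0.12 in WT males, and Srebf1 by 0.82 ± 0.19 and 1.07 ± 0.21. No gene of the 3 lists was called in any genotype comparison, where at most 0.0756% of all genes were called, so that this says little about the lists.

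As a share of all counts, the 10 members took 5.58% ± 0.0807 (SD, n = 4) in ND-fed and 5.23% ± 0.0652 in CDAHFD-fed WT females, and 5.41% ± 0.878 and 4.97% ± 0.181 in WT males. In Cyp2b-null males they took 5.86% ± 0.492 on ND and 4.89% ± 0.28 on CDAHFD. In Cyp2b-null females they took 5.61% ± 0.292 on ND and 6.03% ± 1.22 on CDAHFD, or 5.43% ± 0.196 without replicate 3.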

How the data were processed

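Mouse livers were profiled by RNA-seq in 32 libraries, 8 groups of 4. Raw counts per gene were deposited by the authors as 1 table for females and 1 for males, made from 150-base read pairs with Trimmomatic, GSNAP and Subread on GRCm38.p6, with no normalization. Totals were 2906411 to 10166959 counts per library, and 48 replicate pairs held no duplicate (lowest chi-square per gene 3.34). Counts were filtered by expression (minimum count 10, minimum total 15), scaled by TMM and tested with edgeR 4.0.16 in R 4.3.3, by the quasi-likelihood test with all 16 libraries of a gender in 1 fit (13226 genes in females, 13460 in males), and with all 32 in 1 fit for differences between genders (14020). Genes were called at a Benjamini-Hochberg adjusted p under 0.05, and standard errors are the log2 change over the root of F. CPM are means ± SD. The scripts were tested on simulated data. All 10 members are named, with the 1 gene nearest each in pattern and, of each list, the 2 called genes that rose most and the 2 that fell most, except that those that fell in the list of lipoprotein assembly, remodelling and receptors are not reported here. Members and lists were chosen with earlier results of these data known. Alternatives were DESeq2 1.42.0, other scalings and filters, the groups compared alone, the study's 2-step rule, the replicate block and libraries left out. Chosen after seeing the data were length slope as a covariate and correlations without 1 female library. The 2-step rule calls on an unadjusted t-test p under 0.05, among genes whose test over all groups of a gender passed after adjustment.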

Additional observations from a re-analysis of the deposited data

Results flagged for a closer look

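Among 88 groups of 4 libraries (10 genes and their summed share, in 8 groups), 10 held a library far from the other 3 by Dixon's criterion, which chance meets in about 1 in 20 groups. In CDAHFD-fed Cyp2b-null females, replicate 3 was far from the others for Apoa1 (13722 CPM, others 6003 to 7163), Apoe (39263 CPM, others 22846 to 23588), Apom (149 CPM, others 71.0 to 77.9), Apob (3343 CPM, others 5010 to 5165) and the share of all counts on the apolipoprotein genes (7.84%, others 5.21% to 5.57%). That library also had the lowest length slope of all, and its part in these values was not tested beyond leaving it out.

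Apoa4 in CDAHFD-fed WT female replicate 4 was 3438 CPM against 826 to 1118 CPM in the others, and with each library left out in turn the diet effect on Apoa4 in WT females stayed between 2.12 and 3.07 on the log2 scale. Apoa5 in CDAHFD-fed WT female replicate 3 was 1030 CPM against 1341 to 1395 CPM. Apoa1 in ND-fed Cyp2b-null female replicate 4 was 13449 CPM against 8036 to 8668 CPM. Apoc1 in CDAHFD-fed WT male replicate 1 was 2041 CPM against 1308 to 1357 CPM, and Apoe in ND-fed Cyp2b-null male replicate 1 was 25609 CPM against 32031 to 32409 CPM.

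Among 30 differences between genders tested over the members, that of the diet effect on Apoe in Cyp2b-null mice passed (-0.84 on the log2 scale, male minus female, edgeR's quasi-likelihood test, adjusted p = 0.0436). With each library left out in turn its adjusted p ran from 0.03 to 0.138.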

How the results depend on the processing

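No called change of a member turned its direction under any alternative. Of members called in Cyp2b-null females on diet (3), the count was 6 with the length slope as a covariate (chosen after seeing the data), 6 without the 2 libraries absent from the heat maps and 1 under the 2-step rule. With library size only it was 2, both higher (Apoa4 and Apoc2), and with RLE scaling Apoa2 was lost. In WT males (6 called) it was 2 with library size only and 3 under the 2-step rule. For genotype on ND in males (0 called) it was 1 with DESeq2, without the low-count filter and under the 2-step rule, each time Apoa4. For the gender difference of the diet effect in Cyp2b-null mice (1 called) it was 2 without the low-count filter, and 0 with the replicate block, with the length slope and without the 2 libraries. The causes were not tested, and the shares of all genes called under each alternative are not given here. With a denominator that leaves out the 10 most abundant other genes, the members' share was 6.89% and 6.25% in ND-fed and CDAHFD-fed WT females, 6.91% and 7.18% in Cyp2b-null females, 6.70% and 5.93% in WT males, and 7.10% and 5.94% in Cyp2b-null males.

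With each library left out in turn, members called on diet ran from 4 to 8 in WT females, 1 to 6 in Cyp2b-null females, 5 to 7 in WT males and 5 to 6 in Cyp2b-null males. Shares of all genes called in these fits are not given here either. Genotype and interaction counts stayed at 0, as did gender differences except in the diet effect of Cyp2b-null mice (0 to 1). Shares in ND-fed and CDAHFD-fed mice ran from 5.55% to 5.62% and 5.20% to 5.25% in WT females, 5.50% to 5.73% and 5.43% to 6.31% in Cyp2b-null females, 5.16% to 5.72% and 4.88% to 5.02% in WT males, and 5.74% to 6.10% and 4.76% to 4.97% in Cyp2b-null males.

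Deviations of same-numbered libraries from their group means had a median r of -0.0079 in females and 0.025 in males. For pairs with different numbers these medians were 0.0023 and -0.0094. In females and males r was above 0.1 in 2 and 3 of 24 same-numbered pairs and in 6 and 11 of 72 others. In males the highest r was 0.29 for same-numbered and 0.20 for other pairs. Shared handling of same-numbered libraries was not tested beyond this and the replicate block. With the replicate block, Apoe in WT males (-0.49, adjusted p = 0.0637) and the gender difference of Apoe (-0.81, adjusted p = 0.0656) did not pass, Apoc1 in Cyp2b-null females did (-0.51, adjusted p = 0.0281), and no other member's call changed. Apoc2 had 9 to 52 counts per library, which limits its precision, and its overlap with a readthrough gene was not tested.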
